A study of Mus musculus with 2 samples.

Results

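The mitochondrial carrier family Slc25 was described in the heart of aged male mice. Members were the genes whose symbol starts with Slc25a and that have at least 1 protein_coding transcript, which gave 47 members among the 55536 annotated genes of the gene table. The rule used names and annotation and no measured value. Of the 48 genes with such a symbol, Slc25a5-ps was left out because it is annotated as a transcribed processed pseudogene, and it held 0 counts in both libraries. The mice, 18 to 20 months old, were of the strain B6CASTF1/J, an F1 cross between C57BL/6J and CAST/EiJ. Total RNA was profiled in 2 libraries of 1 group, replicates 1 and 2, each prepared with ERCC spike-ins from an input of 300 ng of RNA. With no second condition, the levels of the carriers and the difference between the libraries could be described, and no effect of age, sex or strain could be tested. The labels number the libraries as biological replicates 1 and 2, each with technical replicate number 1. They also give the libraries different sample identifiers and the same donor identifier. Whether the libraries come from different animals is not stated, so any difference between them may be technical. The p-values and calls given below cover counting error alone: they set 1 library against 1, take counts as independent and hold no estimate of the spread between samples.

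Mitochondrial carriers are small proteins of the inner mitochondrial membrane that move metabolites, nucleotides and cofactors between the cytosol and the matrix. Each is built from repeats of a common fold, and most exchange a substrate on one side for another on the other side. In heart muscle, the ADP/ATP carrier and the phosphate carrier feed ATP synthase and export its product, the carnitine carrier brings in fatty acids for oxidation, and the malate and aspartate carriers pass reducing equivalents into the matrix. Encoded proteins were not measured here.

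Replicates 1 and 2 had 39053830 and 37447840 expected counts, of which 38858481 and 37281459 fell on annotated genes. Of these gene counts, 29.3% and 34.4% came from the mitochondrial chromosome. All 7 heart muscle markers were detected, from Ryr2 (the ryanodine receptor) at a mean of 318.7 TPM (a length-scaled transcript abundance) to Myl2 (a ventricular myosin light chain) at 8983. Of the markers of fast skeletal muscle, liver and testis germ cells, 0 of 5 reached 1 TPM in each list, and all 5 of the testis list were at 0. Summed markers of erythroid cells stood at 10471 and 6791 TPM in replicates 1 and 2, those of white fat at 32.2 and 6.22, those of macrophages at 42.1 and 27.5 and those of endothelium at 129.7 and 128.1. In such bulk tissue, fewer cells of a type and less RNA per cell cannot be told apart.

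The heart carried message for most of the family, at levels that ran from 2169 TPM in a single library down to 0. In both libraries 35 of 47 members (74.5%) reached 1 TPM, beside 10882 of 22015 nuclear protein-coding genes (49.4%). The mean level was at least 100 TPM for 4 members, from 10 to 100 for 12, from 1 to 10 for 19 and under 1 for 12. The median member stood at 5.72 TPM, and the median nuclear protein-coding gene at 1.07. Among genes at 1 TPM or more in both libraries these medians were 9.7 and 8.6.

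**Figure D1:**
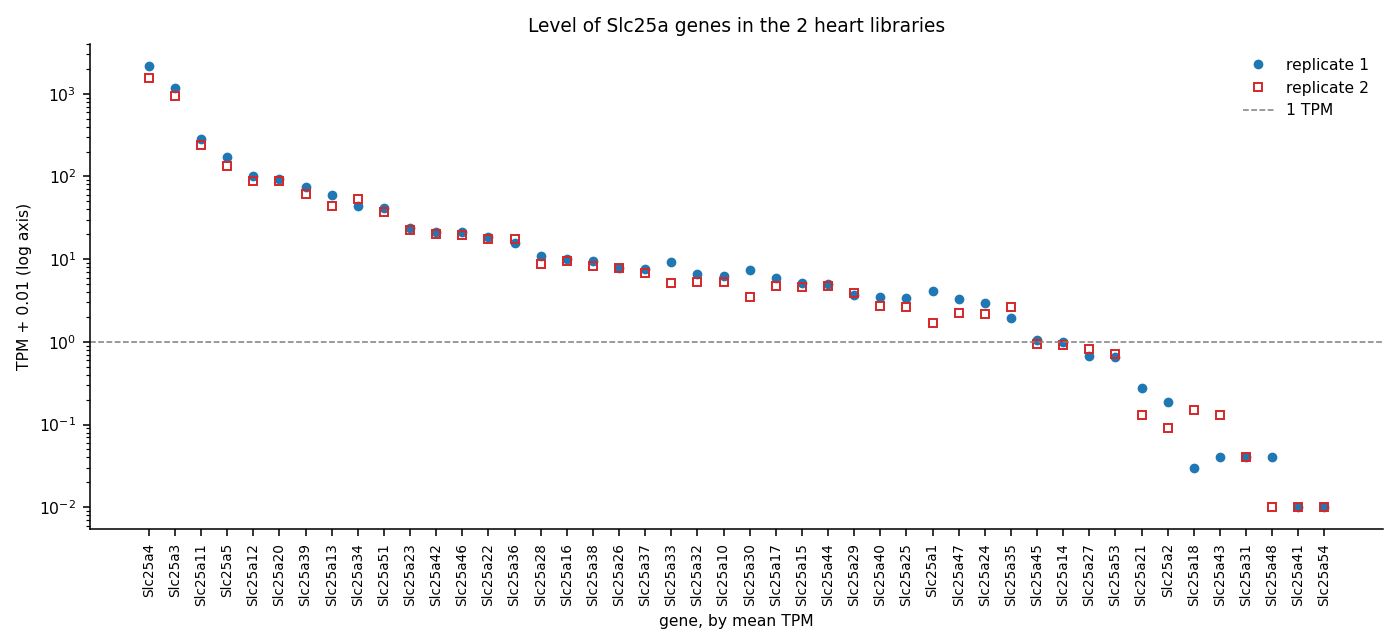
TPM of the gene table for 46 of the 47 Slc25a genes (vertical axis, log scale, with 0.01 added so that zeros can be drawn) in order of mean level, with filled circles for replicate 1 and open squares for replicate 2. Slc25a4 and Slc25a3 stand apart at the left, most members lie above the dashed line at 1 TPM, and Slc25a41 and Slc25a54 lie at 0 in both.

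The family's message was concentrated in a few genes. Its summed level was 4451 TPM in replicate 1 and 3454 in replicate 2, which was 1.02% ± 0.0775 of nuclear protein-coding TPM (SD, n = 2). Slc25a4 alone made up 48.7% and 45.5% of that sum, Slc25a4 with Slc25a3 75.2% and 72.4%, and the 10 highest members 94.8% and 94.1%. The same 10 genes were the highest 10 in the second quantification of the same libraries. In the order of mean level, 26 of 46 neighbouring members had library values that overlapped, but only 5 of 19 such neighbours did among the 20 highest members.

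Carriers of adenine nucleotides and phosphate supplied most of the message. Their 8 members made up 79.7% of the family's TPM in replicate 1 and 77.1% in replicate 2, with 6 of the 8 detected in both libraries. The 10 carriers of amino acids and carnitine held 6.68% and 7.5%, and the 4 carriers of di- and tricarboxylates 6.68% and 7.19%. The 9 carriers of cofactors and nucleotides were all detected yet held only 2.97% and 3.48%. The 4 carriers of iron and glutathione held 2.19% and 2.29%, the 9 members given no substrate here 1.62% and 2.3%, and the 3 relatives of the uncoupling proteins 0.205% and 0.15%. In the second quantification the adenine nucleotide and phosphate group held 76.0% and 75.7%, and the di- and tricarboxylates, at 9.98% and 8.87%, stood above the amino acid and carnitine group, at 6.74% and 7.23%. The grouping by substrate is textbook knowledge and was not measured.

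**Figure D2:**
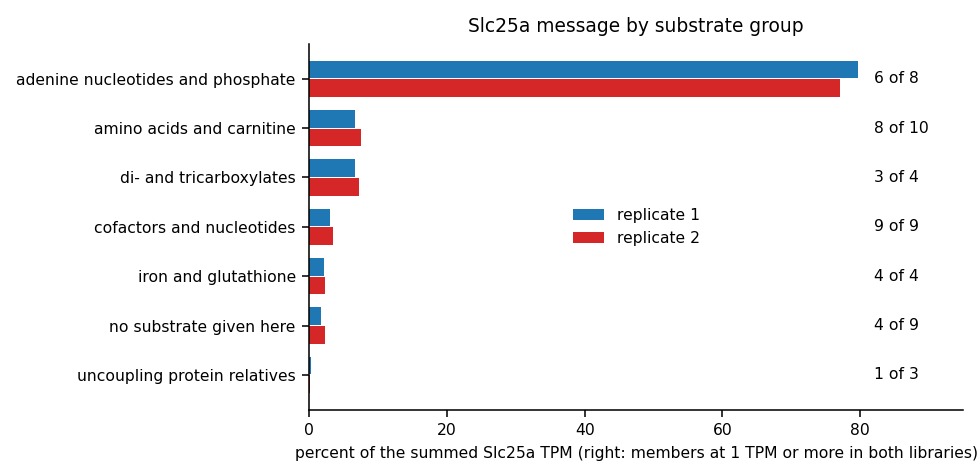
Percent of the summed Slc25a TPM held by each substrate group (horizontal axis), with blue bars for replicate 1 and red bars for replicate 2 and, at the right, how many members reached 1 TPM in each library. The adenine nucleotide and phosphate carriers hold 79.7% and 77.1%, and no other group reaches 8% in either library in this first quantification.

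Slc25a4, the ADP/ATP carrier that predominates in muscle (chromosome 8, 46206797 to 46211284, minus strand, mm10), was at 2169 TPM in replicate 1 and 1570 in replicate 2. By mean level it ranked 18 among nuclear protein-coding genes. Slc25a5, the ADP/ATP carrier found in most tissues, was at 170 and 135 TPM. Slc25a31, the ADP/ATP carrier of male germ cells, had 2 counts in each library, or 0.03 TPM. Slc25a4 therefore made up 92.7% and 92.1% of the message of the 3 paralogs, and the mean share was 92.02% to 95.03% under the other 3 measures tried (second quantification, counts, coding transcripts only).

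The coding sequences of Slc25a4 and Slc25a5 have equal length and were 77.8% identical in alignment, but their longest common run was 20 bases, under the length of a read. The stretch that holds it is shown because it bears on whether reads of these paralogs can be told apart. It covers bases 298 to 365 of each coding sequence, counted from the start codon, with the shared run in capitals, from the GENCODE M21 transcripts Slc25a4-201 and Slc25a5-201.
Slc25a4: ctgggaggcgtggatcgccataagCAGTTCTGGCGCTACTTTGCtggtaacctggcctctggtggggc
Slc25a5: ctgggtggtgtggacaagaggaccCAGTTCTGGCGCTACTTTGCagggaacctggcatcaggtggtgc
No 100-base stretch of one gene's leading transcript occurred in transcripts of the other. Slc25a5 did share 12.01% of its 100-base stretches with the pseudogenes Gm5256, Gm5529, Gm5560 and Gm6425, and reads from those stretches cannot be placed by sequence alone. Of the 47 members, 41 shared no such stretch with transcripts of another gene read in the same orientation.

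Slc25a3, the phosphate carrier, stood second in the family at 1176 and 931 TPM. The calcium-regulated ATP-Mg/phosphate carriers, which adjust the adenine nucleotide pool of the matrix, were far lower. Slc25a23 was at 23.7 and 22.6 TPM, Slc25a25 at 3.38 and 2.61 and Slc25a24 at 2.98 and 2.16. Slc25a41, a relative without the calcium-binding domain, had 0 counts in both libraries, where the limit of 3 counts is 0.0884 and 0.089 TPM. Slc25a41 lies 2056 bases from Slc25a23 on chromosome 17, and Slc25a54, also at 0 counts in both libraries, lies 6461 bases from Slc25a24 on chromosome 3. In these neighbouring pairs, then, one gene was detected and the other was not at this depth.

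The phosphate carrier gene has a pair of mutually exclusive coding exons, and the form with the upstream exon is known as that of heart and skeletal muscle. Transcripts with the upstream exon (chr10:91122207-91122331, minus strand, 125 bases) were assigned 1091 and 859 TPM, and those with the downstream exon (chr10:91121922-91122043, minus strand, 122 bases) 79.1 and 66.7 TPM. The upstream exon thus took 93.02% ± 0.315 of the coding pair (SD, n = 2). In the second quantification it took 79.8% ± 0.658, so the upstream form led in both and the size of the minor form depended on the quantification. The exons are shown because their differences let reads be assigned to a form. In a global alignment of 129 columns they were identical in 85, and capitals mark the bases that differ or stand opposite a gap (mm10, GENCODE M21).
Slc25a3 upstream exon: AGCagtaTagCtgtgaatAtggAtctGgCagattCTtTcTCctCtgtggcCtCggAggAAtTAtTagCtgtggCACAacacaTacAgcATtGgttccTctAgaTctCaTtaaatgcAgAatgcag
Slc25a3 downstream exon: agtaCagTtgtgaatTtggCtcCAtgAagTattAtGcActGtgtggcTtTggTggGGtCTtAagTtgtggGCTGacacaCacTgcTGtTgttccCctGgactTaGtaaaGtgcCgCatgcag
The differing bases are spread along the exons rather than gathered at an end. The upstream exon occurs in the coding transcript Slc25a3-206, and the downstream exon in Slc25a3-201 and Slc25a3-203.

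The malate-aspartate shuttle, which carries the reducing power of cytosolic NADH into the matrix, was represented by 3 members. Slc25a11, the oxoglutarate/malate carrier, was at 287 and 241 TPM and was the third highest member. Slc25a12 and Slc25a13, the aspartate/glutamate carriers, were at 102 and 87.8 TPM and at 59.3 and 44.5 TPM. Among the enzymes of the shuttle, the malate dehydrogenases Mdh1 and Mdh2 were at means of 942 and 727 TPM and the aspartate aminotransferases Got1 and Got2 at 379 and 283. The library values of Got2 (297 and 270 TPM) overlapped those of Slc25a11. The glutamate carrier Slc25a22 was at 18.4 and 17.7 TPM, whereas its paralog Slc25a18 had 1 count in replicate 1 and 8 in replicate 2.

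The order of Slc25a12 and Slc25a13 depended on which transcripts were counted. Slc25a12 made up 63.3% and 66.4% of their summed TPM in replicates 1 and 2, but 14.5% and 15.4% when only protein_coding transcripts were summed. Most of the Slc25a12 level, 73.5% ± 3.31 (SD, n = 2), was assigned to Slc25a12-207, a transcript of 2392 bases annotated for nonsense-mediated decay, the pathway that removes transcripts with early stop codons. The coding transcript Slc25a12-206, of 6351 bases, was assigned 9.71% and 9.08%. The second quantification gave a similar split, with 58.4% for Slc25a12-207 and 11.05% for Slc25a12-206, and placed 32.3% and 24.2% in Slc25a12-202, a retained-intron transcript of 414 bases. Slc25a12-207 lacks exon 4 of Slc25a12-206 and ends in a last exon of 664 bases where that of Slc25a12-206 has 4291. Which of these features draws the reads to it cannot be told apart from these tables. Exon 4 (chr2:71333605-71333720, minus strand, 116 bases) is shown because it is the exon by which these transcripts differ in number.
Slc25a12 exon 4: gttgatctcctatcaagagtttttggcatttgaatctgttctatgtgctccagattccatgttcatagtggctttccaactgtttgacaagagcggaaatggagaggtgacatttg
In the first quantification the 2 transcripts that hold exon 4 were together assigned 24.1 and 21.01 TPM. Of this, 14.18 and 13.04 TPM were on Slc25a12-201, a processed transcript of 550 bases. The second quantification assigned 0.736 and 0.678 TPM to Slc25a12-201 and 13.65 and 11.95 TPM to Slc25a12-206. Slc25a13 had no such split, with 96.8% of its level in the coding transcript Slc25a13-203.

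**Figure D3:**
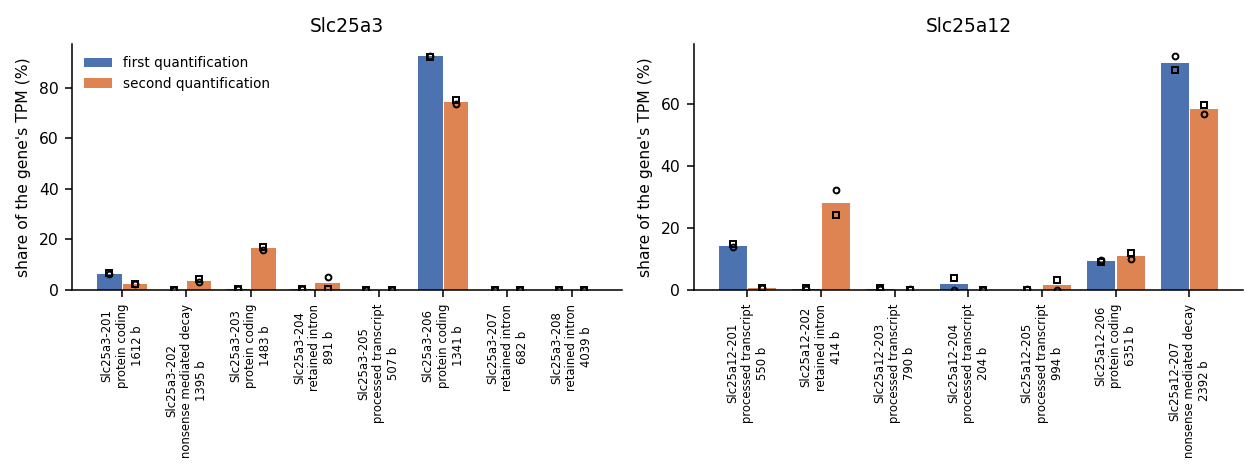
Share of the gene's TPM assigned to each annotated transcript of Slc25a3 and Slc25a12 (vertical axis, percent), with blue bars for the mean of the first quantification, orange bars for the second, and circles and squares for replicates 1 and 2. The coding Slc25a3-206 leads its gene in both quantifications at 92.5% and 74.5%, and Slc25a12-207, annotated for nonsense-mediated decay, leads its gene at 73.5% and 58.4%.

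Most detected members gave clearer transcript assignments. In the first quantification, the leading transcript by mean share was protein_coding in 33 of 35 detected members. It took more than 50% of the level in 31 and was the same in both quantifications in 32. The protein_coding type includes short transcripts. Slc25a23-206, with 528 coding bases, led its gene at 53.7%, beside 44.05% for Slc25a23-201, with 1401 coding bases. Protein_coding transcripts held over 90% of the level in 23 members, with a median of 95.6% over the 35. The exceptions under 50% were Slc25a12 and Slc25a47, a liver-enriched carrier with no clear leading transcript. For Slc25a47, the processed transcript Slc25a47-205 had the highest mean share, 31.8%, but Slc25a47-204 led in replicate 1 with 35.1%, and Slc25a47-205 and the coding Slc25a47-201 were level in replicate 2 at 32.6% each. Among the highest members in the first quantification, Slc25a20-201 held 99.6% of its gene, Slc25a5-201 99.5%, Slc25a11-201 97.2%, Slc25a4-201 94.2% and Slc25a39-201 91.4%. In the second quantification Slc25a11-201 held only 66.9% and Slc25a39-201 61.6%. Slc25a20-201 held 99.7% there, Slc25a5-201 99.4% and Slc25a4-201 99.6%. Slc25a34 has a single annotated transcript. Slc25a51-201 led its gene with a mean of 43.6%, but in replicate 2 it was level with Slc25a51-205 (42.88% and 42.86%). In the second quantification Slc25a51-202 had the highest mean share, 31.4%. It led there in replicate 1 alone, at 40.2%, whereas in replicate 2 Slc25a51-201 led at 33.0%, with Slc25a51-202 at 22.5%.

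Slc25a20, the carnitine/acylcarnitine carrier, was at 93.9 and 87.5 TPM. It exchanges acylcarnitines for free carnitine, and its paralog Slc25a29, a carrier of basic amino acids, was at 3.68 and 3.84 TPM. Slc25a20 made up 96.2% and 95.8% of their sum. The enzymes on either side of it were at or above its level, apart from the liver form of the outer enzyme. The muscle form Cpt1b was at 228.7 TPM ± 5.08, the liver form Cpt1a at 16.05 ± 0.347, the inner enzyme Cpt2 at 114.7 ± 7.31 and Crat (carnitine acetyltransferase) at 192.8 ± 16.1 (SD, n = 2 for each). Slc25a29 lies on chromosome 12 with Slc25a47, transcribed away from each other and 162 bases apart, and Slc25a47 was at 3.25 and 2.24 TPM.

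The remaining amino acid carriers were detected at low levels. Slc25a38, the glycine carrier needed for haem synthesis, was at 9.48 and 8.22 TPM. Slc25a44, a branched-chain amino acid carrier, was at 4.96 and 4.67, and Slc25a15, the ornithine carrier, at 5.1 and 4.55. Slc25a2, its single-exon paralog, had 7 counts in replicate 1 and 3 in replicate 2.

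Among carriers of di- and tricarboxylates, Slc25a11 was followed by much lower members. Slc25a10, the dicarboxylate carrier, was at 6.2 and 5.24 TPM. Slc25a1, the citrate carrier that exports citrate for fatty acid synthesis, was at 4.16 and 1.69 TPM. Slc25a21, the oxoadipate carrier, had 17 and 8 counts and was under 1 TPM in both libraries.

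Cofactor carriers were present in full but at modest levels. Slc25a51, the NAD carrier, was the highest at 41.6 and 37.7 TPM. The coenzyme A carriers Slc25a42 and Slc25a16 were at 21.5 and 20.1 TPM and at 9.91 and 9.48, so Slc25a42 made up 68.5% and 68.0% of the pair. The second quantification lowered this share to 54.6% and 64.0%, as Slc25a16 rose there to 17.8 and 11.5 TPM. Slc25a36 and Slc25a33, the pyrimidine nucleotide carriers, were at 15.6 and 17.4 TPM and at 9.15 and 5.18. Slc25a26 (S-adenosylmethionine) was at 7.91 and 7.8, Slc25a32 (folate and FAD) at 6.64 and 5.28 and the peroxisomal Slc25a17 at 5.85 and 4.67. All 9 cofactor and nucleotide carriers passed 1 TPM in both libraries.

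Slc25a39, which carries glutathione into the matrix, was at 75.5 and 61.0 TPM and made up 95.6% and 95.7% of its sum with the paralog Slc25a40, at 3.47 and 2.71 TPM. The mitoferrins, which bring in iron for haem and iron-sulphur clusters, were nearer each other. Slc25a37 (mitoferrin 1) was at 7.66 and 6.82 TPM and Slc25a28 (mitoferrin 2) at 10.9 and 8.62. Their order depended on the measure: Slc25a37 made up 41.2% and 44.2% of the summed TPM but 70.0% and 69.7% of the summed counts, which are not corrected for length. Mitoferrin 1 is known for its role in red cell precursors, and the summed erythroid markers were 10471 and 6791 TPM, with 4 of 5 detected. Their part in the Slc25a37 level was not tested.

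**Figure D4:**
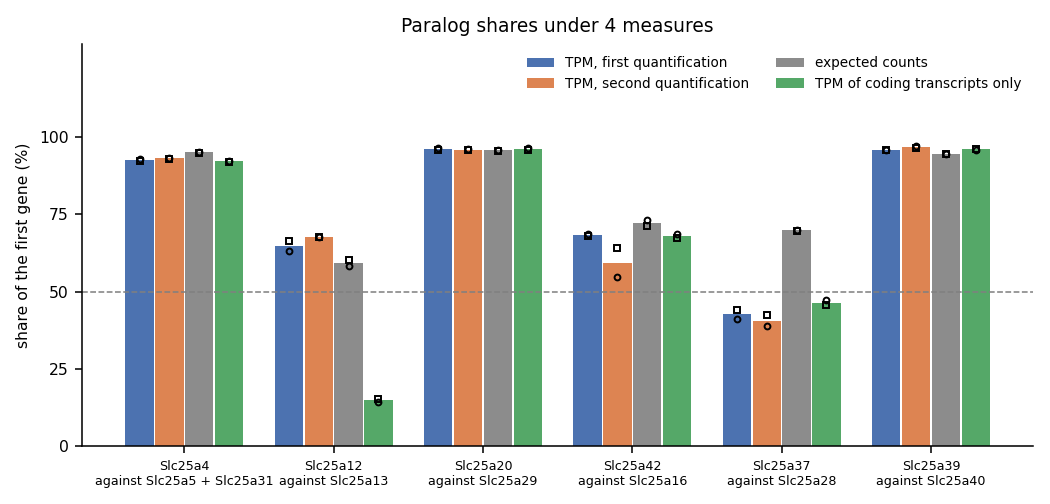
Share of the first-named gene in each of 6 paralog sets (vertical axis, percent) under TPM of the first quantification, TPM of the second, expected counts and TPM of protein_coding transcripts only, with bars for the mean of the libraries and circles and squares for replicates 1 and 2. Slc25a4, Slc25a20 and Slc25a39 hold over 90% under all 4 measures, whereas Slc25a12 crosses the dashed 50% line when only coding transcripts are summed and Slc25a37 crosses it with counts.

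Members without a substrate given here included Slc25a34, which was ninth in the family at 43.9 and 53.3 TPM. Slc25a46, a member of the outer mitochondrial membrane that takes part in mitochondrial dynamics, was at 21.3 and 19.5 TPM. Slc25a35, a close relative of Slc25a34, was at 1.94 and 2.61, and Slc25a45 lay at the threshold with 1.03 and 0.92. Slc25a43, Slc25a48, Slc25a53 and Slc25a54 stayed under 1 TPM in both libraries, with Slc25a53 the highest at 0.65 and 0.71. Slc25a43 lies 18448 bases from Slc25a5 on the X chromosome and had 1 and 4 counts, beside 5983 and 4705 for Slc25a5.

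The relatives of the uncoupling proteins were low. Slc25a30 was at 7.47 and 3.46 TPM, and Slc25a14 and Slc25a27, both known from brain, were between 0.67 and 0.98 TPM. Among the uncoupling proteins themselves, which belong to the family but carry other symbols, Ucp1 (the brown fat form) was at 0.46 and 0.42 TPM, Ucp3 (the muscle form) at 6.32 and 13.5 and Ucp2 at 102.7 and 77.3. The related outer membrane genes Mtch1 and Mtch2 were at means of 76.95 and 79.4 TPM. Among inner membrane carriers of other families, Mpc1 and Mpc2, the subunits of the pyruvate carrier, were at means of 341 and 246 TPM, whereas the sideroflexins Sfxn1 to Sfxn5 were between 0.86 and 3.08.

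The libraries were then compared as libraries, not as conditions, to see how firmly these levels hold. Ratios are replicate 2 over replicate 1 on the log2 scale after TMM scaling, and calls come from an exact binomial test, two-sided, at an adjusted p under 0.05 over all 12189 genes at a mean of 1 TPM or more. Of the 35 members tested, 3 were higher in replicate 2, beside 10.7% of all genes tested, and 10 were lower, beside 15.9%. Spike-in scaling gave 7 members higher and 8 lower, with 2884 and 990 of all genes, and total counts gave 3 and 14, with 700 and 3473. At 2-fold or more the count was 0 higher, beside 0.476% of all genes, and 1 lower, Slc25a1, beside 0.968%. Of the 4 tested family or related genes with other symbols, Ucp3 was higher at 1.24, above 2-fold. The other 3 were lower: Ucp2 at -0.24, Mtch1 at -0.10 and Mtch2 at -0.10. With spike-in scaling Mtch1 and Mtch2 were not called. The members' median ratio was -0.10, and that of all genes tested -0.02. The middle of the members ran from -0.21 to 0.03 (quartiles), that of all genes from -0.14 to 0.10, and 32 of 35 members differed by less than 1.5-fold, beside 94.9% of all genes.

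**Figure D5:**
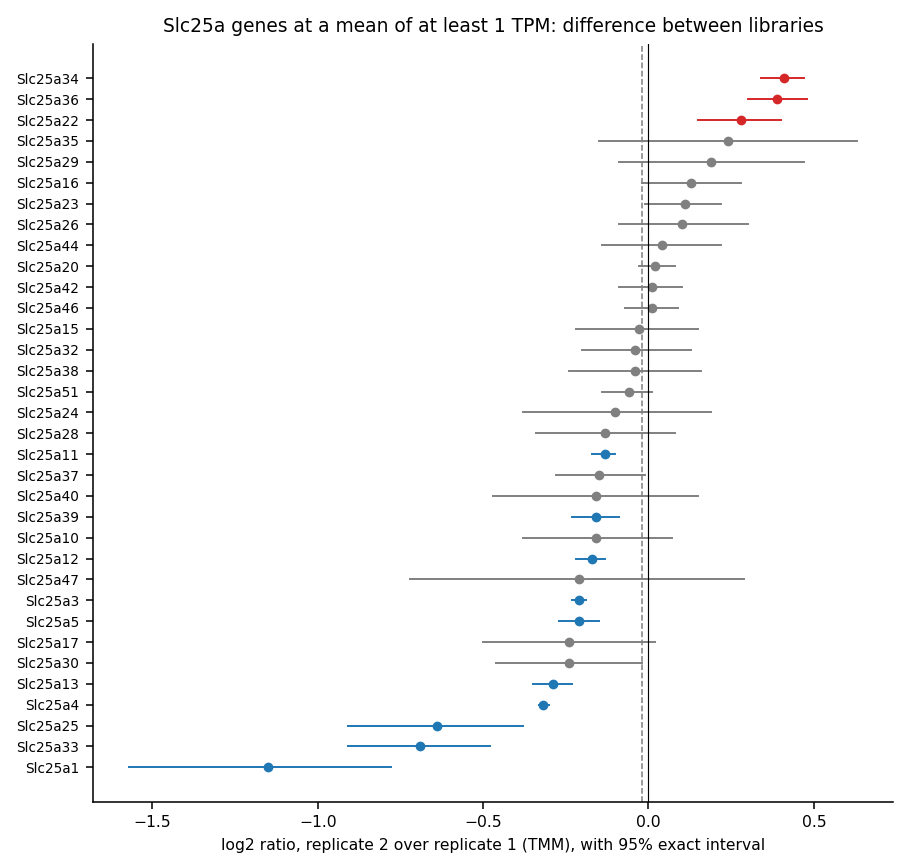
Log2 ratio of replicate 2 over replicate 1 (horizontal axis) with its exact 95% interval for 34 of the 35 members at a mean of 1 TPM or more, in red where called higher, in blue where called lower and in grey otherwise. The dashed line marks the median of all genes tested at -0.02, and Slc25a1 lies farthest from it at -1.15.

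Calls were more frequent among deeply counted genes. Of the 15 members with at least 2000 counts in the libraries together, 10 were called, beside 45.3% of all genes that deep, and of the 20 with fewer counts 3 were called, beside 17.6%. Most called differences were small. Slc25a4 fell by 0.32 (interval -0.33 to -0.30), from 118791 to 86698 counts, Slc25a3 by 0.21 and Slc25a5 by 0.21. Of the adenine nucleotide and phosphate carriers, 4 of 6 tested were lower and 0 higher, with a median of -0.21. Among all genes with at least 2000 counts, 27.9% were lower and 17.3% higher. By TMM, heart muscle markers moved the same way, with 6 of 7 lower, 1 higher and a median of -0.12. Their ratios were not computed under other scalings, and spike-in scaling moved the median of all genes from -0.02 to 0.08. The mitochondrial chromosome took 29.3% and 34.4% of gene counts. The part of the markers and of the mitochondrial counts in these ratios was not tested.

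All 3 malate-aspartate carriers were lower in replicate 2 by TMM, although Slc25a11 was not called with spike-in scaling (-0.04). Slc25a13 fell by 0.29 (interval -0.35 to -0.23), Slc25a12 by 0.17 and Slc25a11 by 0.13. Of the shuttle's 4 enzymes 3 were lower, with Got2 not called at -0.01, beside the 27.9% of deeply counted genes that were lower. With spike-in scaling 2 of these enzymes were lower and Got2 was higher (0.08), and with total counts all 4 were lower. Slc25a20 was at 0.02 (interval -0.03 to 0.08) and was called higher only with spike-in scaling (0.12). Of the carnitine enzymes, 3 of 4 were higher, from 0.08 for Cpt2 to 0.25 for Cpt1a, beside 17.3% of deeply counted genes. With total counts 2 were higher, Cpt2 was not called (-0.00) and Crat was lower (-0.09), and with spike-in scaling all 4 were higher. Ratios close to 0 with narrow intervals were also found for Slc25a46 (0.01, interval -0.07 to 0.09) and Slc25a42 (0.01, interval -0.09 to 0.10), of which Slc25a46 was called higher with spike-in scaling (0.10). For the 22 members not called, a difference was not shown, and intervals reached 0.63 for Slc25a35 and -0.72 for Slc25a47.

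The members higher in replicate 2 were Slc25a34, Slc25a36 and Slc25a22. Slc25a34 rose from 3484 to 4202 counts, a ratio of 0.41 (interval 0.34 to 0.47, adjusted p = 2.6e-33, exact binomial test). Slc25a36, a pyrimidine nucleotide carrier, rose by 0.39 (interval 0.30 to 0.48), from 1731 to 2060 counts, and shares 7.88% of its 100-base stretches with Gm13217. Slc25a22, a glutamate carrier, rose by 0.28 (interval 0.15 to 0.40), from 1055 to 1162 counts. Its TPM did not rise: it was 18.4 in replicate 1 and 17.7 in replicate 2, and 21.9 and 21.7 in the second quantification. What sets its counts and TPM apart was not tested.

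The largest ratios downward belonged to low members. Slc25a1 had 191 counts in replicate 1 and 77 in replicate 2, a ratio of -1.15 (interval -1.57 to -0.78, adjusted p = 6.4e-09, exact binomial test), or 2.23-fold higher in replicate 1. White fat, where citrate export feeds fatty acid synthesis, had all 4 of its tested markers lower in replicate 2, with a median of -2.43. The fifth, Lep (leptin), was under the 1 TPM needed for the test, at 0.39 and 0.48 TPM. Adipoq (adiponectin) was at 5.98 and 1.15 TPM and Cfd (adipsin) at 20.02 and 2.63, and none of the 5 markers was at 0 in both libraries. Of all genes tested, 15.9% were lower. All tested markers of erythroid cells (4) and of macrophages (3) were lower too, with medians of -0.47 and -0.36, and so were 6 of 7 for heart muscle. Of 4 endothelium markers 2 were higher and 1 lower, and of 3 fibroblast markers 2 were higher and 1 lower. The 1 tested brown fat marker was not called. The part of any of these cell types in the Slc25a1 ratio was not tested. Slc25a33, the other pyrimidine nucleotide carrier, fell by 0.69 (interval -0.91 to -0.48), opposite in direction to Slc25a36. Slc25a25 fell by 0.64 (interval -0.91 to -0.38). Read as the opposite strand, 10.2% of the 100-base stretches of Slc25a33 occurred in transcripts of Gm13068. For Slc25a25 and Naif1 this was 8.81%. Sequences were compared here, not positions on the chromosome.

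For Slc25a30 the TPM and the counts differed in what they showed. Its TPM was 7.47 and 3.46, but its 398 and 307 counts gave a ratio of -0.24 (interval -0.46 to -0.02), which was not called at an adjusted p of 0.099 by the exact binomial test. It was called lower with total counts (-0.31) and with the counts of the second quantification (-0.32). In the first quantification the libraries differed in the transcripts assigned: the 413-base processed transcript Slc25a30-203 took 38.6% of its TPM in replicate 1 and 0.289% in replicate 2, and the 3588-base coding transcript Slc25a30-201 took 43.5% and 78.9%. The second quantification had the share of Slc25a30-203 the other way, at 27.0% and 46.8%, although its TPM was 3.93 and 2.66. There the 444-base coding transcript Slc25a30-204 took 46.7% in replicate 1, at 6.80 TPM, and 0 in replicate 2. The gene's TPM was again lower in replicate 2.

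The second quantification of each library gave higher TPM for most members. In both libraries 29 of the 35 detected members were higher there, with a median log2 difference of 0.18, beside 0.17 over detected nuclear protein-coding genes. The largest differences were 0.84 for Slc25a30, at 14.6 and 5.68 TPM there, and 0.68 for Slc25a11, at 508 and 350 TPM. Slc25a39 followed at 0.58, Slc25a16 at 0.56 and Slc25a1 at 0.52. At the other end, Slc25a24 differed by -0.23, Slc25a51 by -0.17, Slc25a46 by -0.04, Slc25a32 by -0.03 and Slc25a42 by 0.00. For Slc25a11 the difference came with the 416-base coding transcript Slc25a11-203, which took 39.7% and 20.4% of the gene there and 0.119% and 0.390% in the first quantification.

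The genes themselves were alike in build. The longest annotated coding sequence of a member had a median of 954 bases, with 38 of 47 between 840 and 1200. The 7 longer than that were Slc25a12, Slc25a13, Slc25a23, Slc25a24, Slc25a25, Slc25a46 and Slc25a54, and the longest had 2031 bases (Slc25a12). The aspartate/glutamate carriers and the ATP-Mg/phosphate carriers among them are known for calcium-binding domains ahead of the carrier fold. The members lay on 19 chromosomes, with at most 5 on any of them, and Slc25a2 alone had a single exon. Identity between coding sequences of paralogs ran from 49.1% for Slc25a23 and Slc25a41, whose lengths differ most in proportion at 1401 and 936 bases, to 77.8% for Slc25a4 and Slc25a5. The longest common run among the 14 pairs compared was 25 bases, in Slc25a24 and Slc25a54.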

How the data were processed

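The 2 heart libraries were compared as replicates of 1 group. Members, substrate groups and lists were chosen with earlier results of these data known. Per the deposited file list, the authors derived expected counts and TPM from transcriptome alignments for genes and for the first transcript table, and estimated counts and TPM from the reads for the second transcript table. That list gives mm10 and GENCODE M21. Names of the quantifiers: not given in the sources used here. Entries that name no gene (0.5% and 0.444% of counts, mostly spike-ins) were left out.

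Expected counts were rounded and scaled by TMM (edgeR 4.0.16, R 4.3.3), with a prior count of 2 for log2 ratios. An exact conditional binomial test (scipy 1.17.1) with Benjamini-Hochberg adjustment covered all genes at a mean of at least 1 TPM. It was used because 1 library against 1 leaves no residual degrees of freedom. Intervals are exact Clopper-Pearson at 95%, and p-values, intervals and the floor of 3 counts cover counting error only. Second-table values were summed per gene. Sequences were read from the GENCODE M21 transcripts and aligned with Biopython 1.88. Values were named for the 20 highest members (an item within the rule is counted but not reported here), the paralog sets, the 5 largest ratios and table differences each way and the partner lists. The members discussed for transcripts beyond the 10 highest (Slc25a12-202, Slc25a30, Slc25a47) were picked with their values in view. The binomial test was tried on simulated counts that held counting error alone. That is the assumption of the test itself, so the trial says nothing about the spread between samples. Alternatives are in the closing section.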

Additional observations from a re-analysis of the deposited data

How the results depend on the processing

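No paired analysis was possible because the 2 libraries are the replicates of a single group and the comparison is between them. For the same reason the ratios could not be recomputed with a library left out. With 2 libraries, each lies at a fixed fraction of the SD from the mean, so leaving out a library tests nothing about levels and shares. The median difference of the second quantification was 0.16 and 0.21 in the libraries taken singly. A share is listed below as moved where it changed by at least its SD over the 2 libraries, so small changes can be listed. For Slc25a39, at 95.68%, that SD was 0.0984. The second quantification moved the share of Slc25a4 to 93.05%, of Slc25a12 to 67.8%, of Slc25a42 to 59.3%, of Slc25a39 to 96.75% and of Slc25a3-206 to 74.5%. Counts in place of TPM moved Slc25a4 to 95.03%, Slc25a12 to 59.2%, Slc25a20 to 95.57%, Slc25a42 to 72.2%, Slc25a37 to 69.9% and Slc25a39 to 94.6%. Summing protein_coding transcripts only, a choice made after seeing the data, moved Slc25a12 to 14.96%, Slc25a37 to 46.4% and Slc25a39 to 96.03%. The cause was not tested beyond the transcript shares given. With spike-in scaling, which moved the median of all genes from -0.02 to 0.08, 7 members were higher and 8 lower, and over all genes 2884 were higher and 990 lower in place of 1302 and 1943. Slc25a11 at -0.04 and Slc25a39 at -0.07 were then not called. With total counts 3 members were higher and 14 lower. DESeq2 1.42.0 size factors and no filter on TPM each gave 3 and 10, a minimum of 5 TPM 3 and 8, and the second table's counts 3 and 11. Over the members' ratios and these alternatives, 225 values kept direction and call, 9 became called, 2 lost the call and 0 of the called ones changed sign. The 12 members with a mean under 1 TPM were left out by the TPM filter, and of the 45 members compared without it the same number were called, 3 and 10. With 2 libraries an SD is itself uncertain. The partner genes' ratios under other scalings were added after seeing the data.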
